A study of Homo sapiens with 6 samples.

Results

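The HLA class II genes of HN5 carcinoma cells are described here as 10 genes measured by 15 array probes, out of 47230 probes for 20046 named genes. They are HLA-DRA, HLA-DRB1, HLA-DRB3, HLA-DRB4, HLA-DPA1, HLA-DPB1, HLA-DMA, HLA-DMB, CD74 and CIITA, and they were chosen by gene symbol, with every probe of each symbol included. HN5 cells come from a human squamous carcinoma of the head and neck. Total RNA was measured on 3 Illumina arrays of the parental, erlotinib-sensitive line and 3 of an erlotinib-resistant derivative of it. Erlotinib inhibits the kinase of the epidermal growth factor receptor. The derivative was selected from parental cells by raising the drug over 3 months to 12.5 µM and keeping it at 12.5 µM for a further 6 months. All resistant arrays measured that same derived line, and the labels do not say whether the drug was present at harvest, so resistance, drug exposure and months in culture cannot be told apart. Replicates are called biological without a statement that cultures were separate, so p-values cover only the spread among these arrays, part of which may be technical.

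HLA class II molecules are pairs of an alpha and a beta chain that show peptides from the endosomal pathway to CD4+ T cells. Newly made pairs are held by the invariant chain, encoded by CD74, whose last fragment is exchanged for peptide with the help of HLA-DM, itself a pair of HLA-DMA and HLA-DMB. The class II transactivator CIITA does not bind DNA but joins the RFX and NF-Y factors already on the X and Y boxes of class II promoters. Professional antigen-presenting cells make it constitutively, whereas epithelial and carcinoma cells usually need interferon gamma to do so.

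Promoter sequences are shown for the 6 members with an entry in the RefSeq promoter table (GRCh38.p14), because the X and Y boxes that bind the shared factors lie there. The table holds 250 bases before and 50 after each gene's start, and the stretch from 140 to 11 bases before the start is printed, 5′ to 3′ on the strand of the gene. Capitals mark 2 motifs searched on both strands of the whole entry. They are ACTGATGATG, the longest run of letters shared by at least 3 of the member genes, which lies in their X box region, and CCAAT, the core of the Y box, which reads ATTGG on the other strand.
HLA-DRB1, chr6:32589859-32589988, minus strand: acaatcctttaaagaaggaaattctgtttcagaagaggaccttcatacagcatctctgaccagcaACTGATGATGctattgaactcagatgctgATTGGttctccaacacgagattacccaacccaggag
HLA-DPA1, chr6:33073660-33073789, minus strand: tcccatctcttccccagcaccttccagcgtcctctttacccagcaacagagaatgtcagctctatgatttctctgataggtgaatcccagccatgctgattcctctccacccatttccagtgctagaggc
HLA-DPB1, chr6:33075850-33075979, plus strand: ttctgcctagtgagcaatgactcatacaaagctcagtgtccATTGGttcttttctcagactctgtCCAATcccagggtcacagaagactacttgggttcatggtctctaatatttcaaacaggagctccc
HLA-DMA, chr6:32953108-32953237, minus strand: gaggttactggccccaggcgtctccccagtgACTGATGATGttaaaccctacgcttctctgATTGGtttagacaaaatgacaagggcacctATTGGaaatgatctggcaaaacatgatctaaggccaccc
HLA-DMB, chr6:32941039-32941168, minus strand: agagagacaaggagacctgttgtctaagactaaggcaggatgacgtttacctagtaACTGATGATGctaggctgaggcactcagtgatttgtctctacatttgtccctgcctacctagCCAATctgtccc
CD74, chr5:150412921-150413050, minus strand: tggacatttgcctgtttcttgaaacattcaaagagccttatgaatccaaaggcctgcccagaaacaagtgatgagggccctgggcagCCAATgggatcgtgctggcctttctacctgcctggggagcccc
The run of 10 letters was present in HLA-DRB1, HLA-DMA and HLA-DMB, starting 75, 109 and 84 bases before the gene start, and in 0.0854% of 35116 promoters in the table. The run and the stretch shown were chosen after these promoters had been read, so the share is a description and no evidence of enrichment. CCAAT was found in 5 of the 6 genes and in 34.6% of all promoters. In HLA-DRB1 and HLA-DMA an ATTGG lay 19 and 20 bases after the run, and in HLA-DMB a CCAAT lay 52 bases after it. The HLA-DPA1 entry shown, and a second one at chr6:33080699-33080998, held neither motif. Entries for HLA-DRA, HLA-DRB3, HLA-DRB4 and CIITA were not used here.

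Class II genes were higher in the resistant cells, but unevenly. The alpha chain genes HLA-DPA1 and HLA-DRA and the exchange factor gene HLA-DMB rose most, HLA-DMA, HLA-DRB3 and HLA-DRB4 rose by less than 0.3 on the log2 scale, and HLA-DRB1, HLA-DPB1, CD74 and CIITA stayed at or near background. Values are the authors' normalized signals, taken as log2 from their range since no source used here states the base, and a probe counted as above background on an array when it exceeded a limit of 7.00, set at 3 SD above the mode of that array's values. A gene is represented by its probe with the highest mean over the 6 arrays. Genes were tested with limma when that probe was above the limit on at least 3 arrays, with p-values adjusted over 11050 genes. Of the 10 members 6 were tested and all 6 passed in the resistant direction, where 26.6% of tested genes were called higher and 27.5% lower. HLA-DPA1 and HLA-DMB entered the test only through the resistant arrays, so they had to differ and the count is no support in itself. Without the filter all 10 members were tested and 6 were called higher, where 14.9% of all 20046 genes were. The median difference over all 10 members was 0.19, against -0.0019 over all genes. In bulk RNA, more cells making class II and more class II RNA per cell cannot be told apart.

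**Figure D1:**
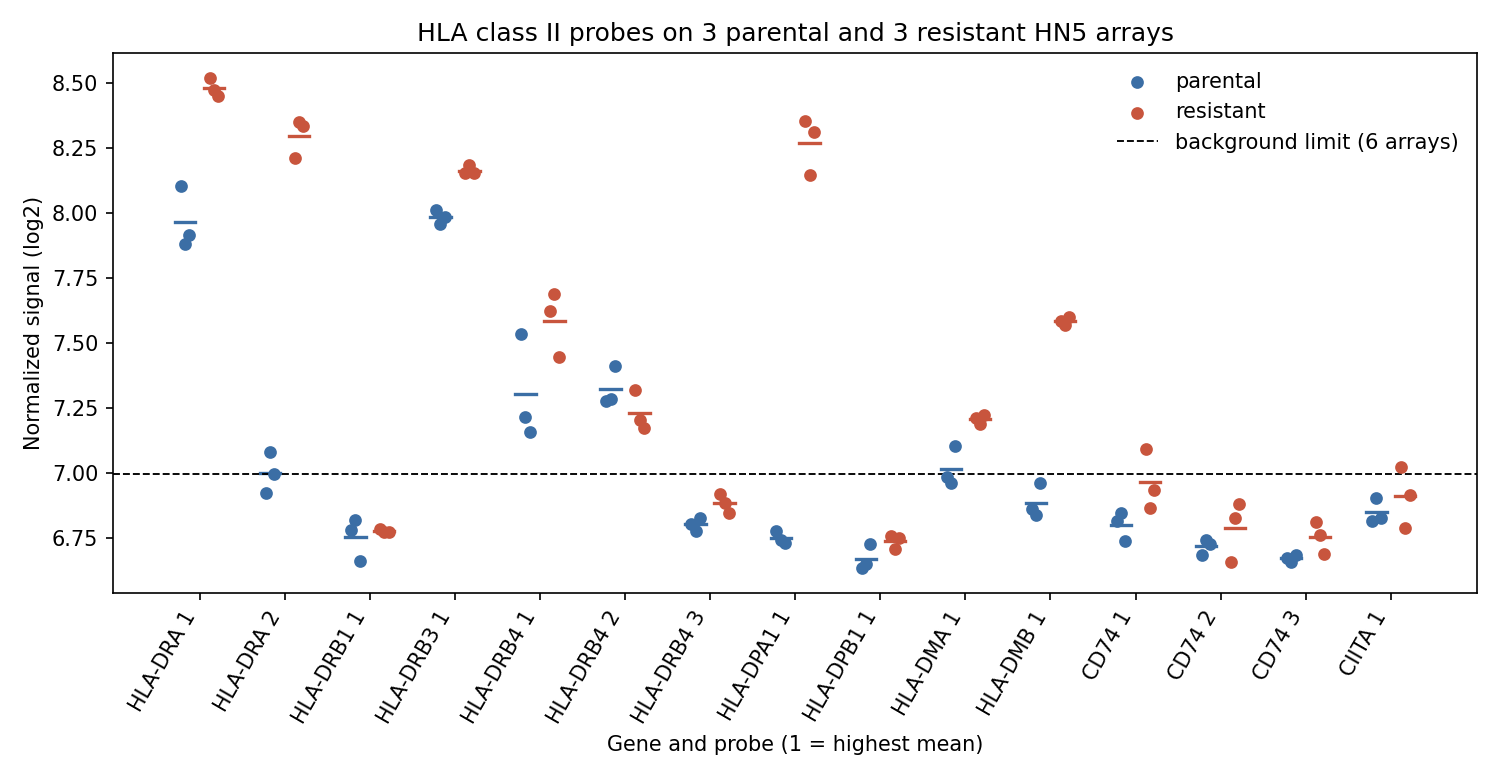
Normalized log2 signal (vertical axis) of each of the 15 class II probes, by gene and by rank of the probe's mean within its gene, with 1 point for each of 3 parental and 3 resistant arrays, short bars for group means and a dashed line for the background limit. The HLA-DPA1 and HLA-DMB points move from below the line to above it, while the HLA-DRB1, HLA-DPB1, CD74 and CIITA points lie at or near the line or under it in both groups.

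HLA-DRA encodes the nearly invariant alpha chain shared by all HLA-DR molecules. Its brighter probe read 8.10, 7.88 and 7.92 on the parental arrays and 8.52, 8.48 and 8.45 on the resistant arrays. All parental arrays were already above background, and all resistant arrays lay above all parental ones, an order found in the resistant direction for 29.2% of tested genes. The means were 7.97 ± 0.119 and 8.48 ± 0.0360 (SD, n = 3 each), a rise of 0.52 (SE 0.0659, limma adjusted p = 1.86e-05), or 1.43-fold. The second HLA-DRA probe read 6.92, 7.08 and 7.00 in parental and 8.21, 8.35 and 8.34 in resistant cells. It rose by 1.30 (SE 0.0635, limma over 18732 probes, adjusted p = 8.00e-09), and only 1 of its parental values was above background. Both HLA-DRA probes rose, so the direction did not depend on the probe, but the size of the change did: the mean of both gave 0.91. In parental cells HLA-DRA was thus detected by the first probe and lay at the edge of detection by the second.

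The beta chains that pair with HLA-DRA come from several closely related DRB genes. HLA-DRB3 had 1 probe, which read 8.01, 7.96 and 7.99 in parental and 8.15, 8.18 and 8.16 in resistant cells. All 6 values were above background and the groups did not overlap. The rise was small, 0.18 (SE 0.0535, limma adjusted p = 0.0120), or 1.13-fold.

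HLA-DRB4 had 3 probes that did not move alike. The brightest read 7.54, 7.22 and 7.16 in parental and 7.62, 7.69 and 7.45 in resistant cells. Parental replicate 1 lay within the resistant range, so the groups overlapped. The difference of 0.28 (SE 0.0923) passed over genes (limma adjusted p = 0.0190). The second probe read 7.28, 7.29 and 7.41 against 7.32, 7.20 and 7.17, and its difference of -0.09 did not pass (95% interval -0.23 to 0.04, limma adjusted p over probes = 0.258). The third probe was under the limit on all arrays, with means of 6.80 and 6.89. The mean of the tested HLA-DRB4 probes gave 0.095 and lost the call (adjusted p = 0.211). Leaving out parental replicate 2 or 3 or resistant replicate 1 or 2 also lost it, with adjusted p between 0.0514 and 0.0839, so a rise of HLA-DRB4 rests on 1 probe and on the set of arrays.

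HLA-DRB1, the beta chain gene carried on every DR haplotype, was at background on all 6 arrays by its only probe, at 6.78, 6.82 and 6.66 in parental and 6.79, 6.77 and 6.78 in resistant cells. The groups overlapped, and without the filter the difference of 0.02 did not pass (limma adjusted p = 0.829). DRB genes are close copies that also vary between people, and the probe sequences were not used here. Signal of a DRB probe may therefore come from another DRB copy, and a low value may reflect a mismatch with the alleles of HN5 as well as little RNA; neither was tested.

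HLA-DPA1, the alpha chain of HLA-DP, changed most among the members. Its probe read 6.78, 6.75 and 6.73 on the parental arrays, all at background, and 8.35, 8.15 and 8.31 on the resistant arrays, all well above it. The means were 6.75 ± 0.0241 and 8.27 ± 0.110 (SD, n = 3 each). The difference was 1.52 (SE 0.0638, limma adjusted p = 3.50e-10), and against the background limit the rise was at least 2.42-fold. HLA-DPB1, the beta chain that HLA-DPA1 pairs with, was at background on all 6 arrays, at 6.64, 6.65 and 6.73 in parental and 6.76, 6.71 and 6.75 in resistant cells. The groups overlapped, and without the filter the difference of 0.07 did not pass (limma adjusted p = 0.354). HLA-DPB1 also varies between people, and a mismatch of its only probe was not tested.

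The genes of the HLA-DM pair both rose, HLA-DMB by more. HLA-DMB read 6.86, 6.84 and 6.96 in parental cells, all at background, and 7.59, 7.57 and 7.60 in resistant cells. It rose by 0.70 (SE 0.0568, limma adjusted p = 2.49e-07), at least 1.50-fold against the background limit. HLA-DMA read 6.99, 6.96 and 7.11 in parental and 7.21, 7.19 and 7.22 in resistant cells. Its groups did not overlap, but only parental replicate 3 was above background in that group. The rise of 0.19 (SE 0.0582, limma adjusted p = 0.0130) was lost without parental replicate 2 (adjusted p = 0.0525). In the limma fit over probes the HLA-DMA call was also lost without parental replicate 1 (adjusted p = 0.0523).

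CD74, the invariant chain gene, was not clearly detected in either group by any of its 3 probes. The brightest read 6.82, 6.85 and 6.74 in parental and 7.10, 6.87 and 6.94 in resistant cells, and only resistant replicate 1 was above background. The groups did not overlap, an order shown in this direction by 19.1% of all genes without the filter. Without the filter the difference of 0.17 did not pass (limma adjusted p = 0.0642). The other CD74 probes were at background on all arrays, with means of 6.72 and 6.67 in parental and 6.79 and 6.75 in resistant cells.

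CIITA, the transactivator, was likewise near background. Its probe read 6.82, 6.91 and 6.83 in parental and 7.03, 6.79 and 6.92 in resistant cells. The groups overlapped, and only resistant replicate 1 was above the limit, as for CD74. Without the filter the difference of 0.06 did not pass (limma adjusted p = 0.563). CIITA RNA below the detection of these arrays was not measurable, so its absence is not shown.

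**Figure D2:**
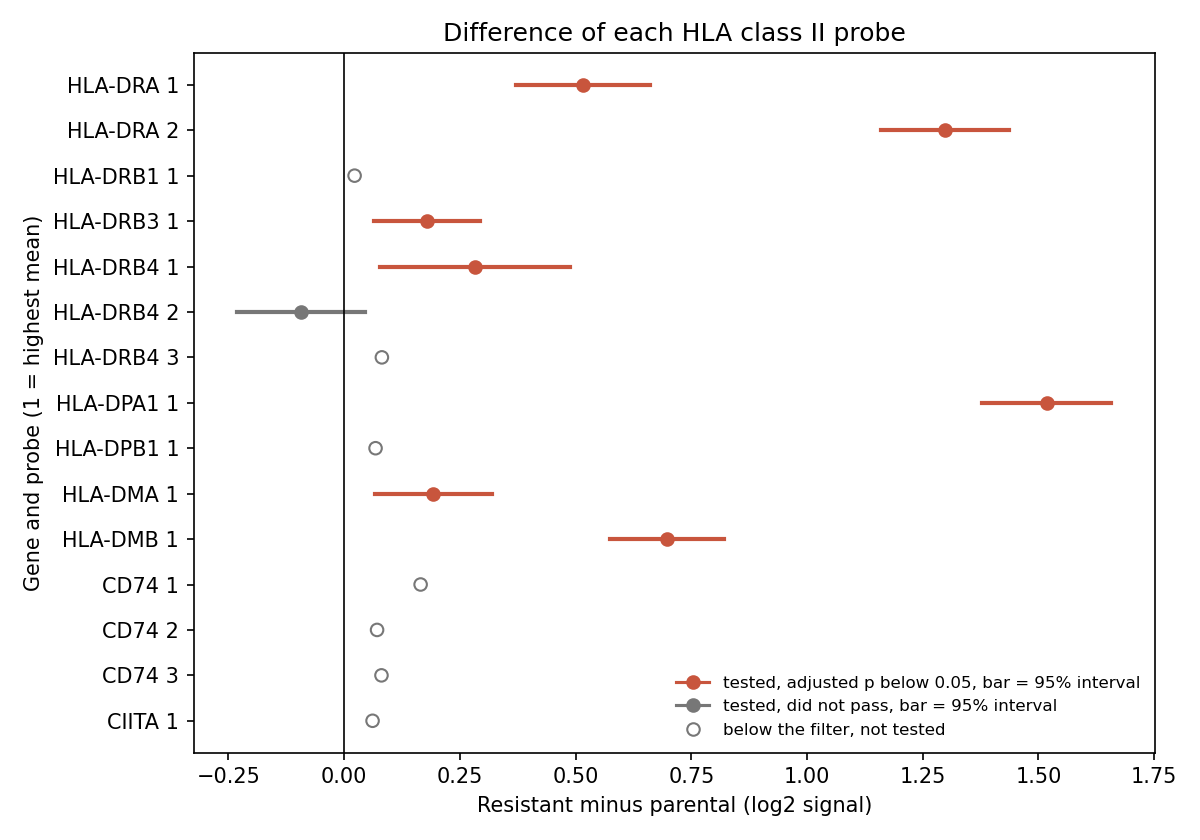
Difference between resistant and parental means (horizontal axis, log2 signal) for each of the 15 class II probes, with 95% intervals from limma for the 8 tested probes and open circles for the 7 below the filter. HLA-DPA1 at 1.52 and the second HLA-DRA probe at 1.30 lie farthest from 0, and the second HLA-DRB4 probe is the only one on the negative side.

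At the level of probes, 8 of the 15 passed the filter, and 7 of these were called higher and 0 lower, where 22.5% of all 18732 tested probes were called higher and 24.4% lower. The HLA-DPA1 and HLA-DMB probes entered only through the resistant arrays, so they had to be higher. The second HLA-DRA probe and the HLA-DMA probe had only 1 parental array above the limit. This count too is therefore no support in itself. Dim signals are compressed on this log2 scale, which understates their change. With the background mode of each array subtracted, and values floored at the limit, the differences became 3.58 for HLA-DPA1, 2.29 for HLA-DMB, 0.93 for HLA-DMA, 0.83 for HLA-DRA and 0.30 for HLA-DRB3, all still past the test. HLA-DRB4 became 0.85 and lost its call (adjusted p = 0.0581). For genes at background these sizes depend on the floor.

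The remaining class II chains were below detection. HLA-DRB5, HLA-DQA2, HLA-DQB1, HLA-DOA and HLA-DOB, the last 2 being the chains of the HLA-DM modulator HLA-DO, had 1 probe each, at background on all 6 arrays. Their differences ran from -0.06 to 0.01. HLA-DQA1 and HLA-DQB2 were not analysed here, having no probe of that symbol. The rises of the members were thus set beside 5 relatives of the same gene region at background in both groups. A mismatch of these probes with the alleles of HN5 was not tested, so their low values do not show that the genes were silent.

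The DNA-binding factors with which CIITA works were present in both groups. Of 7 enhanceosome genes, all tested, 1 fell and 0 rose, beside 27.5% and 26.6% of all tested genes. NFYC, a subunit of NF-Y, fell by 0.19 (SE 0.0534, limma adjusted p = 0.00862). RFX5, the DNA-binding subunit of RFX, read 9.58, 9.52 and 9.64 in parental and 9.55, 9.64 and 9.48 in resistant cells, with overlapping groups. Its difference was -0.03 (adjusted p = 0.733), and that of RFXANK, another RFX subunit, was -0.04 (adjusted p = 0.637); both turned to the other sign when single replicates were left out. CREB1, which binds the X2 element, differed by 0.07 on its brightest probe (adjusted p = 0.395), but 2 of its 4 tested probes rose.

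Genes on the route from interferon gamma to CIITA were higher except at its start and at its brake. IFNG itself was at background on all arrays. Of 6 tested genes of the route 5 rose and 0 fell, beside 26.6% and 27.5% of all tested genes. IFNGR1, the ligand-binding receptor chain, read 9.53, 9.25 and 9.55 in parental and 10.45, 10.52 and 10.48 in resistant cells, with no overlap. It rose by 1.04 (SE 0.0754, limma adjusted p = 7.76e-08), or 2.06-fold. IFNGR2, the signalling chain, rose by 0.36, and the receptor-associated kinase genes JAK1 and JAK2 rose by 0.35 and 0.25 (limma adjusted p = 2.20e-04, 0.00132 and 0.00235). JAK2 lay near the limit, above it on 1 parental and 3 resistant arrays (means 6.96 and 7.21). IRF1, a transcription factor that acts on a CIITA promoter, rose by 0.25 (adjusted p = 0.0139). SOCS1, which inhibits JAK signalling, differed by -0.12 (adjusted p = 0.112).

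Most peptide processing genes were higher, and CTSH was lower. Of 10 listed genes 9 were tested, and 7 rose and 1 fell, beside 26.6% and 27.5% of all tested genes. The median difference of those tested was 0.27, against -0.0069 over all tested genes. The endosomal protease gene CTSL read 10.57, 10.50 and 10.46 in parental and 11.74, 11.81 and 11.77 in resistant cells, a rise of 1.26 (SE 0.0564, limma adjusted p = 6.18e-10). Its 3 probes rose by 0.44 to 1.50. CTSB rose by 1.04 (adjusted p = 8.55e-09) and CTSD by 0.58 (adjusted p = 3.80e-04). CTSH, an aminopeptidase of the same compartment, read 10.35, 10.36 and 10.47 in parental and 8.32, 8.34 and 8.39 in resistant cells, and fell by 2.04 (SE 0.0577, limma adjusted p = 6.76e-12). Its second probe fell by 0.69. CTSS, the protease that trims the invariant chain in professional antigen-presenting cells, was at background on all arrays (means 6.69 and 6.79). IFI30, a lysosomal thiol reductase usually induced together with class II, differed by 0.05 (adjusted p = 0.537). CTSS and IFI30 are among the genes named although they fall outside the rule for named genes, as are IRF1 and SOCS1.

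**Figure D3:**
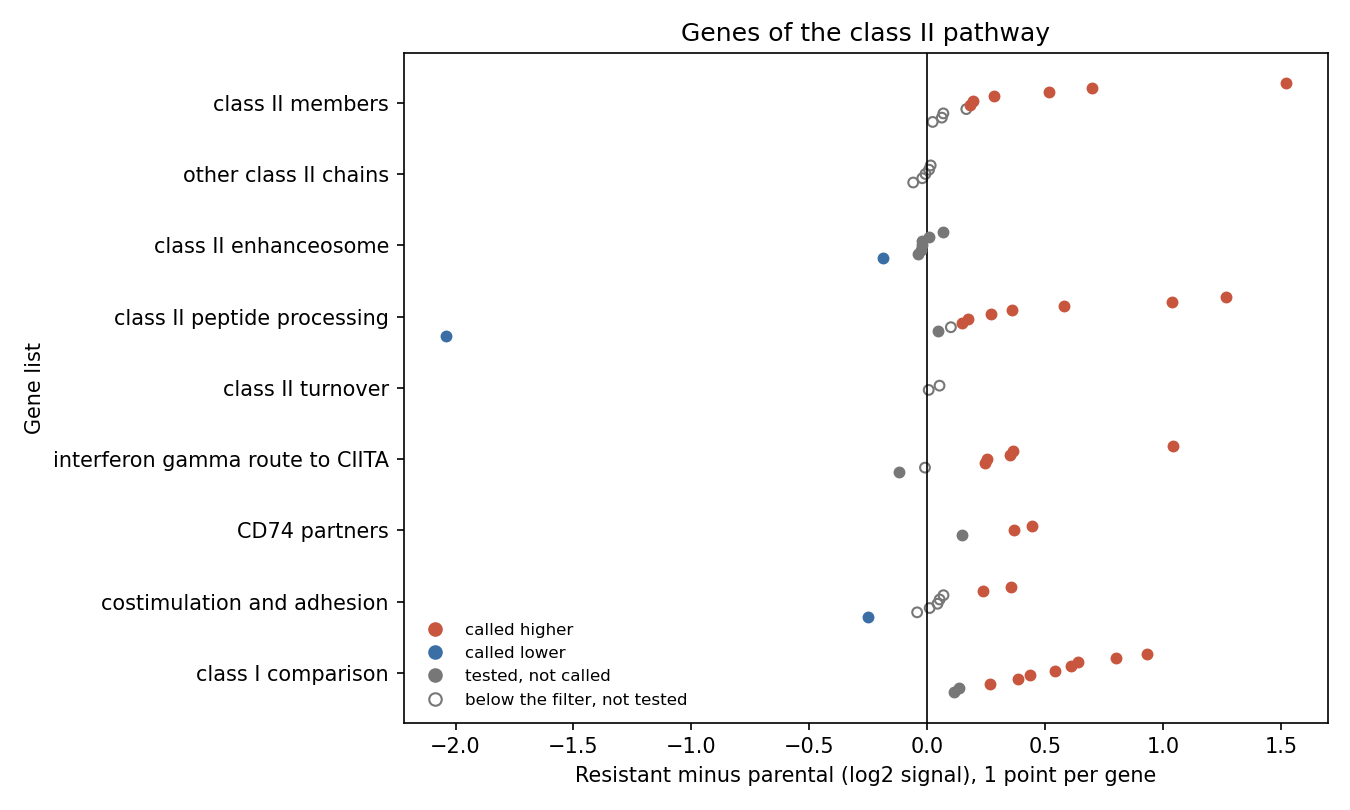
Difference between resistant and parental means (horizontal axis, log2 signal) for the members and 8 further gene lists, 1 point per gene, coloured by the limma call. The 7 enhanceosome genes lie near 0, the interferon gamma route genes lie mostly to the right, and CTSH stands alone at -2.04.

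The invariant chain is also a surface receptor for the cytokine MIF, and signals with CD44. CD44 rose by 0.44 (SE 0.0640, limma adjusted p = 5.84e-05), with all 3 of its probes called higher. DDT, a relative of MIF, rose by 0.37 (adjusted p = 1.44e-04), and MIF differed by 0.15 (adjusted p = 0.0867). That MIF difference passed without parental replicate 3 (adjusted p = 0.0170), and the alternatives spanned 0.0170 to 0.330.

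Most T cell costimulation genes were not tested. CD80, CD40 and the inhibitory ligand genes CD274 and PDCD1LG2 were at background on all arrays, and 3 of 8 genes of the list were tested. The adhesion gene ICAM1 rose by 0.36 (adjusted p = 2.55e-04), and CD83, known as a maturation marker of dendritic cells, rose by 0.24 (adjusted p = 0.00210). ICAM1 lay near the limit, above it on 1 parental and 3 resistant arrays (means 6.96 and 7.31). CD86 read 7.14, 7.18 and 7.16 in parental and 6.97, 6.91 and 6.86 in resistant cells. It was above background only in parental cells and fell, at least 1.12-fold (limma adjusted p = 0.00184). CD86 entered the test only through the parental arrays, so it had to be lower and the call is no support in itself. Only 1 of its 3 probes was tested. Of MARCHF1 and MARCHF8, ubiquitin ligases that remove class II from the surface, neither was tested, with means between 6.89 and 6.97.

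Class I genes, which present peptides to CD8+ T cells, were above background on all arrays except NLRC5, which was near the limit. Of 10 tested 8 rose and 0 fell, beside 26.6% and 27.5% of all tested genes. HLA-B rose by 0.93, HLA-F by 0.80, TAP1, a subunit of the peptide transporter, by 0.64, HLA-E by 0.61 and HLA-C by 0.54 (limma adjusted p = 1.07e-06 to 8.13e-05). The median difference of the 10 class I genes was 0.49, beside 0.19 over all 10 class II members, some of them at background. Over the 6 tested class II members it was 0.40, but 2 of these were tested only through the resistant arrays. No test of the difference between the lists was made.

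The brighter HLA-DRA probe was matched most closely across the 6 arrays by ZMIZ2 (Pearson r = 0.998), IL15 (0.997), NFE2 (0.996), SEMA5A (0.996) and CCL8 (0.994). NFE2 and CCL8 had parental means under the background limit, at 6.72 and 6.98. These are descriptions over 6 arrays in 2 groups, and 24 of 11049 genes reached r of at least 0.99. In all 5, as in that HLA-DRA probe, replicate 1 was the highest array of the parental group and of the resistant group. On the second HLA-DRA probe replicate 1 was the lowest array of both groups (6.92 and 8.21), so the within-group match holds for 1 probe only. HLA-DRB3, HLA-DPA1 and HLA-DMB had r = 0.982, 0.967 and 0.951 with the brighter HLA-DRA probe, ranks 99, 390 and 776 among the 11049 genes. HLA-DRB4 and HLA-DMA had r = 0.854 and 0.847 with it, ranks 2206 and 2269.

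Because leukocytes carry class II, markers of other cell types were read on the same arrays. All 4 T cell markers and all 3 Langerhans cell markers were at background on all arrays, as were the pan-leukocyte genes PTPRC, CD53 and LAPTM5. A further leukocyte gene, CORO1A, was above the limit on 2 parental arrays and on 0 resistant arrays. Of 10 markers of monocytes, macrophages and dendritic cells 4 were tested, with CD68, a lysosomal protein gene, rising by 1.38 and CSF1R falling by 0.66 (limma adjusted p = 3.30e-09 and 3.73e-07). CD163, ITGAX, ITGAM, LYZ, FCER1G and TYROBP were at background. CD14 (means 7.98 in parental and 8.08 in resistant cells) and AIF1 (7.09 and 7.06) were tested and not called. The log2 of that list's summed signal ran from 11.27 to 11.38 in parental and from 11.94 to 12.07 in resistant cells. CD68 was the brightest gene in that sum, with means of 10.07 and 11.45. For the 5 B cell markers on the array it ran from 9.22 to 9.31 and from 9.22 to 9.30, and 0 of 2 tested were called.

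Some markers of other lineages also moved between the same groups. Of 8 fibroblast markers 4 were tested and all 4 were called higher, beside 26.6% of all tested genes, but 3 of the 4 were tested only through the resistant arrays and so had to be higher. The fibroblast gene DCN, at background in parental cells, reached 9.44 in resistant cells, at least 5.45-fold higher. Of the untested fibroblast markers, THY1 and PDGFRB were at background on all arrays. COL3A1 and FAP passed the limit on 2 resistant arrays and on 0 parental arrays. The summed log2 signal of the fibroblast list ran from 9.95 to 9.98 in parental and 10.90 to 10.92 in resistant cells. The endothelial gene PECAM1 reached 7.26 from background, at least 1.20-fold higher, and the remaining 6 endothelial markers were below the limit throughout (summed log2 signal 9.60 to 9.61 and 9.68 to 9.69). All 6 squamous epithelial markers on the array were bright in both groups and fell, with KRT5 going from 12.49 to 11.38 and KRT14 from 13.25 to 12.72. The part of these shifts in the class II changes was not tested.

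**Figure D4:**
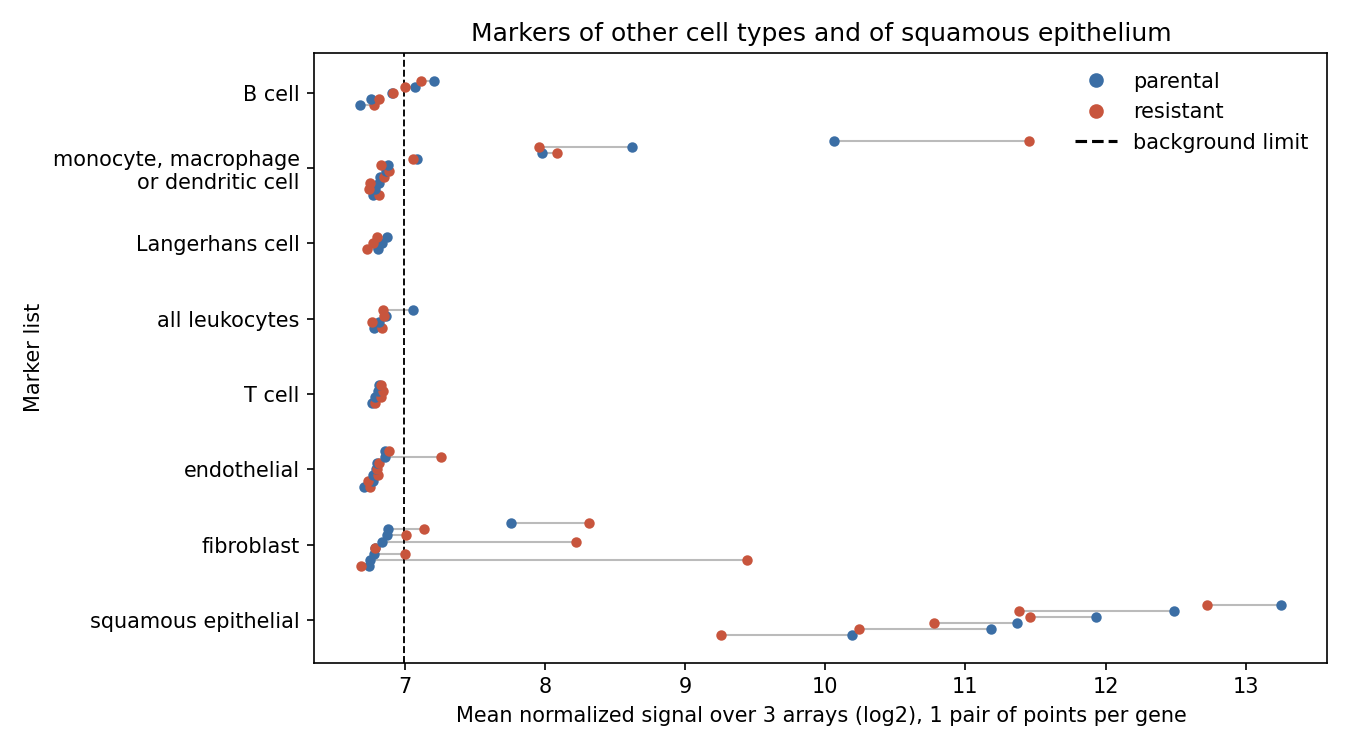
Mean normalized log2 signal over 3 arrays (horizontal axis) of each marker gene, by cell type, with 1 point for parental and 1 for resistant cells joined by a line and a dashed line at the background limit. T cell, Langerhans and nearly all pan-leukocyte markers sit left of the line, and squamous epithelial markers lie far to its right in both groups.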

How the data were processed

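Per the labels' protocols, Trizol-extracted RNA was purified with RNeasy and DNase I, and biotin was added with the Ambion MessageAmp kit. The values are the authors' deposited normalized signals, 1 per probe and array, taken as log2 because of their range; the sources used here name neither log base, software nor normalization, and every fold rests on that base. Sorted values of the 6 arrays differed by at most 0.00434 at any rank, as after quantile normalization, so changes are relative to the other probes of an array. A second table, of unnormalized signals, was left out because the headings of its 12 per-sample columns match no label, and the planned correction from it was not run. Between 38.9% and 39.0% of probes exceeded the background limit, the SD being taken about the mode over values below it. Probe names came from the platform annotation: 30112 of 47230 probes had 1 symbol, 8 had several and 17110 were unnamed. The files name no genome build, so no gene coordinates are given; promoter coordinates are those of the RefSeq table.

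Groups and replicate numbers came from the sample titles. The comparison of resistant with parental arrays used limma 3.58.1 (R 4.3.3), on 4 residual and 9.09 prior degrees of freedom, with Benjamini-Hochberg adjustment and a threshold of 0.05, once over genes and once over probes. On simulated data over 11050 genes, with 50 genes changed at each size, the fit recovered 36% of changes of 0.25 on the log2 scale. It recovered 98% of changes of 0.5 and 100% of larger ones. Far fewer genes were changed there than the 5980 called in the data, so these shares do not give the power of the real comparison. Precision is limited by the 3 arrays per group. The members and gene lists were chosen with earlier results of these data known. Named genes were all members, list genes called with a difference of at least 0.5, otherwise the 4 with the smallest adjusted p of a list, and the 5 genes closest to HLA-DRA. Some genes outside this rule are named as well, among them CTSS, IFI30, IRF1 and SOCS1.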

Additional observations from a re-analysis of the deposited data

How the results depend on the processing

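Alternatives were no filter, a strict filter, a limit of 5 SD, the mean of probes, the replicate block, array weights, a moderation trend, cyclic loess, subtraction of the background mode and each replicate left out; 105 of the 117 values of member genes under them kept direction and side of the threshold, 12 lost the call and 0 reversed. HLA-DPA1 passed in all of them (1.48 to 3.58, adjusted p = 2.17e-12 to 5.73e-07), as did HLA-DMB (0.67 to 2.29), HLA-DRA (0.47 to 0.91) and HLA-DRB3 (0.17 to 0.30, adjusted p = 0.00666 to 0.0461), except where a filter removed the gene. HLA-DRB4 lost its call with the mean of its probes (0.095) and with the mode subtracted (0.85), and ranged from 0.21 to 0.40 with a replicate left out, where HLA-DMA ranged from 0.16 to 0.24. The 6 members called higher became 3 under the strict filter, which leaves out HLA-DPA1, HLA-DMA and HLA-DMB because not all their parental arrays were above background. With a replicate left out the count ran from 4 to 6 with the set of tested genes held fixed, and from 3 to 6 with the filter repeated on the remaining 5 arrays (3 without resistant replicate 1 or 2); the fixed set was preferred after both results had been seen. Under the repeated filter HLA-DRB4 was 0.27 without resistant replicate 1 and 0.23 without resistant replicate 2. For member probes, 135 of 150 values under the alternatives kept direction and side of the threshold, 15 lost the call and 0 reversed. The brightest HLA-DRB4 probe lost its call in the limma fit over probes without the filter (adjusted p = 0.0517). RFX5 ranged from -0.067 to 0.0087 (0.0023 without parental replicate 3) and RFXANK from -0.11 to 0.0095 with a replicate left out. Same-numbered arrays of the 2 groups had deviations correlated at 0.15, -0.0035 and 0.076, and unlike-numbered arrays at -0.19 to 0.12. Whether same-numbered arrays share more than a number was not tested. With the replicate number as a block the difference of HLA-DRB4 kept its value of 0.28 (adjusted p = 0.00474), all 6 members were called, and calls over all genes went from 5980 to 6086.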

Other observations

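Other HLA-D symbols on the array, looked up after the member values were seen, were the pseudogenes HLA-DRB6 and HLA-DPB2, with 2 probes each. The brighter HLA-DRB6 probe read 6.99, 6.92 and 6.82 in parental cells, all at background, and 7.41, 7.16 and 7.25 in resistant cells. It rose by 0.36 (SE 0.0720, limma over probes, adjusted p = 0.00132), at least 1.21-fold, and was tested only because of its resistant values. The other HLA-DRB6 probe had means of 6.83 and 7.01 and was not tested. Both HLA-DPB2 probes were at background on all arrays. HLA-DRB6 is a close relative of the expressed DRB genes, and whether its probe reads RNA of another DRB copy was not tested.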
